A study of Saccharomyces cerevisiae with 18 samples.

Results

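The pyruvate decarboxylase and alcohol dehydrogenase genes of Saccharomyces cerevisiae were taken by their systematic names. No measured value entered this rule, but earlier results of these data were known when the genes were chosen. They are 8 of the 6692 genes in the count files: PDC1 (YLR044C), PDC5 (YLR134W), PDC6 (YGR087C), ADH1 (YOL086C), ADH2 (YMR303C), ADH3 (YMR083W), ADH4 (YGL256W) and ADH5 (YBR145W). Newly synthesized RNA was sequenced (nsRNA-seq), that is, RNA that had taken up 4-thiouracil during 6 min of labeling before cells were collected. All strains were W303 derivatives carrying the plant auxin receptor OsTIR1 under the GPD1 promoter, so that a protein fused to an auxin-inducible degron (AID) is broken down when auxin is given. The Spt20-AID strain carried the degron on Spt20, a core subunit of the coactivator SAGA. The Med16/Spt20-AID strain carried it on Spt20 and on Med16, which joins the tail of Mediator to the rest of the complex, and the Med16/Taf13-AID strain carried it on Med16 and on Taf13, a subunit of TFIID. Cells growing in rich glucose medium (YPD) at 30°C received the auxin 3-indoleacetic acid (3-IAA, 0.5 mM) or its solvent DMSO for 30 min, in biological triplicate, giving 6 groups of 3 libraries. Every strain held the receptor and at least 1 degron and no strain without a degron was analysed here, and depletion and any direct action of the auxin cannot be told apart. The Med16/Taf13-AID libraries also carry the name of a separate sequencing project, so strain and project cannot be told apart.

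Pyruvate decarboxylase removes carbon dioxide from pyruvate to give acetaldehyde, and alcohol dehydrogenase reduces acetaldehyde to ethanol, which returns NADH to NAD+. In glucose these reactions end fermentation and carry most of the carbon of the cell. PDC1 encodes the main decarboxylase, PDC5 a near copy that is known to rise when PDC1 is lost or thiamine is short, and PDC6 a minor isoform. ADH1 encodes the main cytosolic enzyme for ethanol production. ADH2 encodes the glucose-repressed enzyme that oxidizes ethanol, ADH3 the mitochondrial enzyme, ADH4 an enzyme of an unrelated dehydrogenase family, and ADH5 a further isozyme of the ADH1 family.

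Because reads that fit more than 1 place were not counted, what can be said about each gene depends on how far it differs from its copy. Over their coding sequences ADH1 and ADH2 were 88.8% identical, with an unbroken identical run of 189 bases, and PDC1 and PDC5 were 87.2% identical, with a longest run of 65 bases. ADH4 shared only 48.2% of aligned bases with ADH1. Sequences, here and for the promoters below, are those of the reference assembly. The genomes of the W303 derivatives were not examined. The first 75 coding bases of both pairs, read from the R64 assembly (sacCer3) at chrXV:160520-160594 (minus strand), chrXIII:874263-874337 (minus strand), chrXII:234007-234081 (minus strand) and chrXII:410723-410797 (plus strand), show how a read is assigned, with the 11 bases that differ within each pair in capitals.
ADH1: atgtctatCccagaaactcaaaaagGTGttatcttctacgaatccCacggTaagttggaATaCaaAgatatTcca
ADH2: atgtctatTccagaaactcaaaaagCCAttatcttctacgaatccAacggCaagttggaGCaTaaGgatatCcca
PDC1: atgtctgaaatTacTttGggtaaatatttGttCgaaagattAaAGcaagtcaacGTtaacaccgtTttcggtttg
PDC5: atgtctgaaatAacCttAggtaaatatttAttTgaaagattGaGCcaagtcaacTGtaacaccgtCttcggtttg
Of the windows of 38 bases within ADH1 and within ADH2, 83.7% occurred once in the genome, and 88.2% did for windows of 75 bases. For PDC1 and PDC5 these shares were 98.0% and 97.8% at 38 bases and 100% at 75 bases. Levels of ADH1 and ADH2 were therefore understated by the counting, to an extent set by the read length. The methods give 38 or 75 cycles with both ends read, without saying which library had which, and a second end can place a fragment that these windows count as ambiguous.

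The 8 genes also share a promoter feature that was not used to choose them. The TATA box consensus, searched on both strands as TATAAAAA, TATAAAAG, TATAAATA, TATAAATG, TATATAAA, TATATAAG, TATATATA and TATATATG, occurred within 250 bases before the start codon of all 8 genes, against 36.4% of 6001 promoters of that length. The core letters of the Gcr1 site, CTTCC, occurred 4 times before ADH1, 2 times before ADH5, 1 time before ADH3 and in none of the other windows, and 39.3% of promoters held them on either strand. The letters TTGGAG, from an element known upstream of ADH2, were in none of the 8 windows and in 8.40% of promoters. Sequence beyond 250 bases was not searched, so this does not show whether ADH2 holds the element. The windows run to the start codon, so they include the untranslated leader. For 5 tested genes with a match there, the stretch from 250 to 101 bases before the start codon is shown with the TATA consensus in capitals, from chrXII:234182-234331 (minus strand), chrXII:410473-410622 (plus strand), chrXV:160695-160844 (minus strand), chrVII:14909-15058 (plus strand) and chrII:533512-533661 (plus strand) of R64.
PDC1: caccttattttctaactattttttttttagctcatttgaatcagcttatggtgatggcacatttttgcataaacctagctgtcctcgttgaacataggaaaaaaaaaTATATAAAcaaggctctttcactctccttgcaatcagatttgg
PDC5: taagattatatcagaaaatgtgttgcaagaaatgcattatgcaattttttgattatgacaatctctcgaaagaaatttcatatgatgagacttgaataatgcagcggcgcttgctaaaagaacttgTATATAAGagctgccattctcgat
ADH1: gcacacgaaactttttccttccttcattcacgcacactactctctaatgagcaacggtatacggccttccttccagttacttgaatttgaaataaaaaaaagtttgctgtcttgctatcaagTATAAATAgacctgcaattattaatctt
ADH4: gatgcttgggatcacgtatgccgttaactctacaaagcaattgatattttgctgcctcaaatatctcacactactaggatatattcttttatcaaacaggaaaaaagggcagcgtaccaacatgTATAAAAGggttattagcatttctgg
ADH5: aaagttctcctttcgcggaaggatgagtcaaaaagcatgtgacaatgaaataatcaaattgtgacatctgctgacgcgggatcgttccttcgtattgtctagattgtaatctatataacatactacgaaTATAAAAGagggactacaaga
In these windows the consensus began 143 bases before the start codon of PDC1, 124 before PDC5, 128 before ADH1, 126 before ADH4 and 121 before ADH5. In ADH3 the matches, TATATATA on both strands and overlapping each other, lay closer, beginning 66 bases before the start codon. A match is a description of letters, and binding was not measured.

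The libraries held between 874975 and 6189719 sense reads in genes. Normalized counts are sense reads divided by a size factor from the Schizosaccharomyces pombe cells added to each sample, so they follow RNA per added cell. In bulk samples of this kind, fewer recovered cells and less RNA per cell cannot be told apart. A gene was tested when its mean over the 18 libraries was at least 10 reads, which 5567 genes passed, and it was called at an adjusted p under 0.05 in edgeR. In the Spt20-AID strain both replicate 3 libraries stood apart: for PDC1, PDC5, ADH1, ADH3 and ADH5 the replicate 3 library was the highest of the 3-IAA group and the lowest of the DMSO group, with size factors of 1.13 and 2.08, the extremes of the strain. The Spt20-AID response of each tested member is given with and without this pair. The gene lists of the wider pathway were not recomputed without it. Leaving out the pair was decided after the data were seen. For the genes named here it moves the response down by construction, so it is no independent check. The Med16/Taf13-AID 3-IAA libraries were the shallowest, at 874975 to 1029147 sense reads. The degrons act on protein, so the reads of SPT20, MED16 and TAF13 do not check depletion.

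Of the 8 genes, 6 were tested, and PDC6 and ADH2 were too rare. In DMSO, the sense level per kilobase of gene ranked ADH1 first in all 3 strains, at 8039 ± 1504 (SD, n = 3) normalized counts per kilobase in Spt20-AID, 12136 ± 724 in Med16/Spt20-AID and 11281 ± 1457 in Med16/Taf13-AID. PDC1 followed at 5143 ± 1372, 4465 ± 98.4 and 5511 ± 1043, and ADH3 at 648 ± 104, 1060 ± 64.9 and 1217 ± 95.6. The main fermentative pair thus stood several times above every other member, with no overlap between PDC1 and ADH3 in any group. ADH4 and ADH5 overlapped in Spt20-AID DMSO, at 240 ± 26.1 and 223 ± 41.2, whereas ADH5 was above ADH4 in Med16/Spt20-AID DMSO (611 ± 109 against 416 ± 19.1) and below it in Med16/Taf13-AID DMSO (131 ± 29.6 against 316 ± 42.9). PDC5 stood far below PDC1, at 25.2 ± 3.62, 59.7 ± 6.96 and 43.1 ± 3.21 normalized counts per kilobase. ADH2 and PDC6 were last in all 3 DMSO groups, at 6.95 to 16.4 and 1.37 to 5.67 on the same scale. The order in DMSO was the same when only unique windows of 38 or 75 bases were counted as length. After 3-IAA the Spt20-AID strain had a different order at the top, with PDC1 at 3883 ± 344 and ADH1 at 3221 ± 476 per kilobase, which overlapped.

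**Figure D1:**
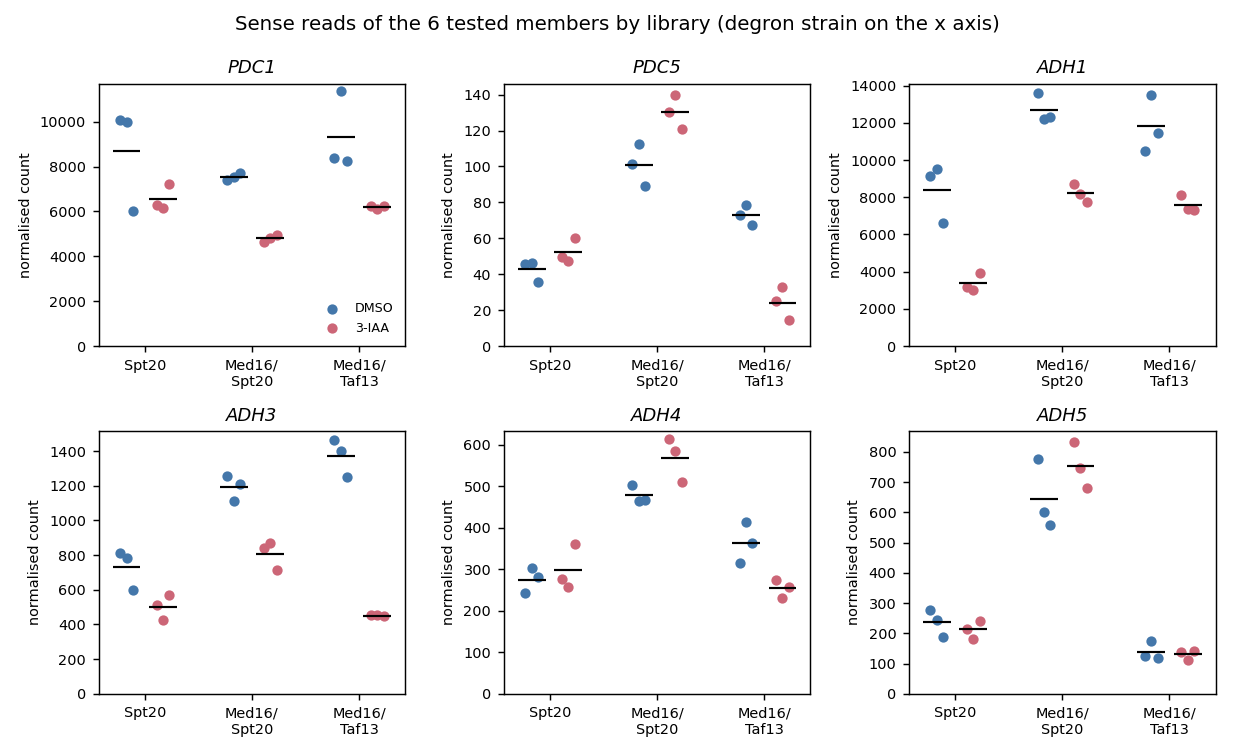
Normalized sense counts (y axis, linear, from 0) of the 6 tested genes in each of the 18 libraries, grouped by degron strain (x axis); blue points are DMSO, red points 3-IAA, and a bar is the mean of 3 libraries. ADH1 lies lowest in the Spt20-AID 3-IAA libraries, between 2992 and 3937, and ADH5 lies highest in the Med16/Spt20-AID strain and lowest in the Med16/Taf13-AID strain.

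In Spt20-AID, PDC1, ADH1 and ADH3 were called lower after 3-IAA, and the PDC1 call was lost in several alternative fits. Of the 6 tested genes 3 were called lower and 0 higher, where 8.08% of all 5567 tested genes were called lower and 54.0% higher. Without both replicate 3 libraries 4 were called lower, ADH5 being added. Med16/Spt20-AID again gave 3 called lower after 3-IAA, by name PDC1, ADH1 and ADH3, and 0 higher, beside 10.3% and 46.2% of all tested genes. The median log2 fold change over the 6 genes was -0.28 and -0.17 in these strains, beside 0.38 and 0.31 over all tested genes. In Med16/Taf13-AID 5 of 6 were called lower and 0 higher, in a background where 98.2% of tested genes were called lower and 0.0719% higher. There the median was -0.61 over the 6 genes and -1.68 over all tested genes. Scaling each library to its own genes (TMM) in place of the spike-in removes this common shift, moving the median of all genes by -0.37 in Spt20-AID, -0.29 in Med16/Spt20-AID and 1.66 in Med16/Taf13-AID, which takes the median of the members there past 0. Where TMM turns the direction of a member it is said beside the value.

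**Figure D2:**
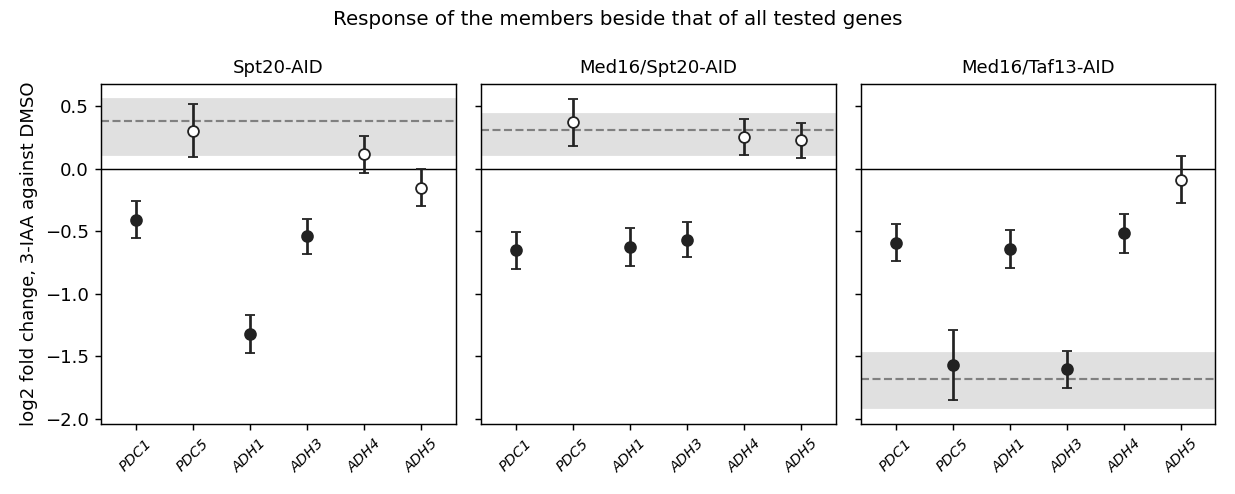
Log2 fold change of 3-IAA against DMSO (y axis) for each tested gene (x axis) in the 3 degron strains, with points and standard errors from the edgeR fit; filled points passed the test and open points did not. The dashed line and gray band are the median and the quartiles of all 5567 tested genes on the spike-in scale, and in Med16/Taf13-AID PDC1, ADH1, ADH4 and ADH5 lie 1.04 to 1.59 above that median, where TMM scaling gives them positive values.

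PDC1 had normalized counts of 10088, 9996 and 6022 in the Spt20-AID DMSO libraries and 6299, 6172 and 7238 after 3-IAA. The DMSO library of replicate 3 lay below every 3-IAA library, so the groups overlapped. The log2 fold change was -0.41 (SE 0.15, adjusted p = 0.0138), and without both replicate 3 libraries it was -0.69 (adjusted p = 5.51e-05). The call was lost without 3-IAA replicate 1 (-0.38, adjusted p = 0.0555), without DMSO replicate 1 (-0.29, adjusted p = 0.112), without DMSO replicate 2 (-0.29, adjusted p = 0.118) and when the spread was estimated from the 6 Spt20-AID libraries alone (adjusted p = 0.0944). The Med16/Spt20-AID strain gave 7397, 7538 and 7728 in DMSO against 4650, 4825 and 4945 after 3-IAA. These groups were far apart for their spread, and PDC1 fell by 0.65 on the log2 scale (SE 0.15, adjusted p = 0.000154). The Med16/Taf13-AID strain gave 8371, 11361 and 8243 in DMSO and 6254, 6109 and 6236 after 3-IAA, again without overlap. Its log2 fold change of -0.59 (SE 0.15, adjusted p = 9.97e-05) was among the smallest losses of all tested genes, at the 98.2 percentile and 1.09 above the median, and became 1.08 under TMM scaling (adjusted p = 5.54e-10).

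PDC5, the near copy of PDC1, was not called where Spt20 was depleted and was called lower in Med16/Taf13-AID. In Spt20-AID it had 45.8, 46.5 and 35.6 normalized counts in DMSO and 49.6, 47.4 and 60.0 after 3-IAA, a log2 difference of 0.30 (SE 0.21, adjusted p = 0.198) that was 0.07 without both replicate 3 libraries and -0.06 under TMM scaling. In Med16/Spt20-AID it had 101, 113 and 89.2 against 130, 140 and 121. These groups did not overlap, but the log2 difference of 0.37 (SE 0.19) had an adjusted p of 0.0732 and lay 0.06 above the median of all genes. TMM scaling gave 0.07. With the spread taken from the compared libraries alone it passed, at an adjusted p of 0.0228. In Med16/Taf13-AID it had 72.9, 78.3 and 67.4 in DMSO and 24.9, 32.8 and 14.6 after 3-IAA. This was a deeper loss than that of PDC1 against the spike-in, -1.57 (SE 0.28, adjusted p = 1.96e-08), and it was 0.11 above the median of all genes and 0.09 under TMM scaling (adjusted p = 0.815). Its depth was 10 reads in the shallowest library, which limits how finely it can be followed.

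Expressed within each library as reads per kilobase, PDC5 amounted to 0.00503 ± 0.000758 (SD, n = 3) of PDC1 in Spt20-AID DMSO and 0.00795 ± 0.000313 after 3-IAA. In Med16/Spt20-AID it went from 0.0134 ± 0.00173 to 0.0271 ± 0.00241, and in Med16/Taf13-AID from 0.00793 ± 0.000937 to 0.0039 ± 0.00151. The groups did not overlap in any strain, with the ratio higher after 3-IAA in both strains with Spt20 depleted and lower in Med16/Taf13-AID. Such ratios need no size factor. The exact two-sided permutation test gave p = 0.1 in each, the smallest that 3 against 3 allows, and 0.15 after adjustment over the 18 ratios tested. The ratio carries changes of either gene. In Spt20-AID and Med16/Spt20-AID, PDC1 was called lower and PDC5 was not called. Measured from the median of all genes, PDC5 lay at -0.08 and 0.06 there and PDC1 at -0.79 and -0.96.

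ADH1 carried the largest change of any member in Spt20-AID. It had 9121, 9516 and 6613 normalized counts in DMSO and 3188, 2992 and 3937 after 3-IAA. The lowest DMSO library was still above the highest 3-IAA library, and the log2 fold change was -1.32 (SE 0.15, adjusted p = 1.44e-15), a level 0.40 of that in DMSO. Of all tested genes, 0.754 percent had a lower log2 fold change. Without both replicate 3 libraries it was -1.59. In Med16/Spt20-AID it had 13580, 12228 and 12311 in DMSO and 8722, 8193 and 7762 after 3-IAA, and fell by 0.63 on the log2 scale (SE 0.15, adjusted p = 0.00031). In Med16/Taf13-AID it had 10484, 13478 and 11472 in DMSO and 8099, 7354 and 7298 after 3-IAA. The groups were again separate, with a log2 fold change of -0.64 (SE 0.15, adjusted p = 2.76e-05) that lay 1.04 above the median of all genes, at the 97.8 percentile, and became 1.02 under TMM scaling (adjusted p = 7.38e-12).

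The question whether losing Med16 as well changes the response to losing Spt20 was put as an interaction term. For ADH1 the response in Med16/Spt20-AID minus that in Spt20-AID was 0.69 (SE 0.21, adjusted p = 0.039). The loss was thus smaller in the strain with both proteins depleted. These are different strains, whose DMSO libraries already differed by a median of 1.01 on the log2 scale. No strain with Med16 depleted alone was analysed, so strain and the added depletion of Med16 cannot be told apart. ADH1 was the only 1 of 6 tested genes called higher, beside 0.611% of all tested genes called higher and 2.64% called lower, and 0 of 6 were called lower. The sign was the same in each fit with a library left out, from 0.59 to 0.97, but the call was lost without Spt20-AID replicate 1 or 2 of either treatment and without any single library of Med16/Spt20-AID, at adjusted p from 0.0587 to 0.172. A replicate block, in which the replicate number enters the fit, also removed the call. The call held without the Spt20-AID replicate 3 libraries, singly or together (adjusted p = 0.00594 without the 3-IAA library, 0.00272 without the DMSO library and 6.3e-05 without both), and under TMM scaling (0.76, adjusted p = 3.68e-06). For ADH1 the replicate 3 libraries ran against the Spt20-AID loss, so leaving them out widens this difference by construction and is no independent check. ADH5 had 0.38 (adjusted p = 0.44), and was called under TMM scaling (0.46, adjusted p = 0.0102) and without both replicate 3 libraries (0.62, adjusted p = 0.0175). For PDC1, PDC5, ADH3 and ADH4 the differences lay between -0.25 and 0.14, each with an SE of 0.20 to 0.28. Without both replicate 3 libraries PDC1 moved from -0.25 to 0.04 and ADH3 from -0.03 to 0.20, neither called, and TMM scaling gave ADH3 0.04.

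The ratio of ADH1 to PDC1 within a library measures ADH1 relative to PDC1 and needs no scaling, so it also carries any change of PDC1. It was added after the data were seen. The adjustment over 18 ratios does not cover that choice, so its p-values and SE are descriptive. In Spt20-AID DMSO the ratio of sense reads per kilobase was 1.46, 1.54 and 1.77, and after 3-IAA it was 0.818, 0.784 and 0.879. Counting only unique windows of 38 bases as length, the ratio was 1.74, 1.83 and 2.11 in DMSO and 0.971, 0.931 and 1.04 after 3-IAA. ADH1 thus went from above PDC1 to near its level or below it, a log2 change of -0.94 (SE 0.097, exact permutation p = 0.1, 0.15 adjusted over 18 ratios). In Med16/Spt20-AID the ratio was 2.97, 2.62 and 2.57 in DMSO and 3.03, 2.74 and 2.54 after 3-IAA, with overlapping groups and a log2 change of 0.03 (SE 0.098, exact permutation p = 0.8). In Med16/Taf13-AID it was 2.02, 1.92 and 2.25 against 2.09, 1.95 and 1.89, a log2 change of -0.06 (SE 0.08, exact permutation p = 0.6). The change in Med16/Spt20-AID differed from that in Spt20-AID by 0.97 (SE 0.14) on the log2 scale. The replicate 3 libraries of Spt20-AID, which stood apart in level, had the highest ratio of their group in both treatments.

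**Figure D3:**
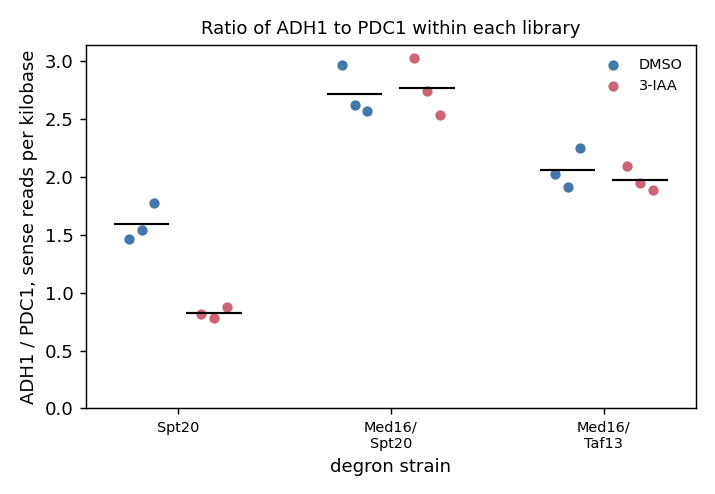
Ratio of ADH1 to PDC1 sense reads per kilobase of gene (y axis, linear, from 0) within each library, by degron strain (x axis); blue points are DMSO, red points 3-IAA, and a bar is the mean of 3 libraries. Of the 3 strains, the groups are apart in Spt20-AID, at 1.59 ± 0.16 in DMSO and 0.827 ± 0.048 after 3-IAA (SD), and overlap in the other two.

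ADH3, which encodes the mitochondrial enzyme, had 811, 783 and 596 normalized counts in Spt20-AID DMSO and 514, 425 and 568 after 3-IAA. The groups did not overlap, and it fell by 0.54 on the log2 scale (SE 0.14, adjusted p = 0.000577), with -0.77 (adjusted p = 7.72e-07) without both replicate 3 libraries. In Med16/Spt20-AID it had 1258, 1115 and 1213 against 840, 867 and 715, and fell by 0.57 (SE 0.14, adjusted p = 0.000446). Its loss in the pair of strains with Spt20 depleted differed by -0.03 (SE 0.20, adjusted p = 0.971), with a 95% interval of -0.46 to 0.41. In Med16/Taf13-AID it had 1462, 1403 and 1253 in DMSO and 455, 453 and 447 after 3-IAA. This was the deepest loss of any tested member against the spike-in, -1.60 (SE 0.15, adjusted p = 1.26e-26), and it lay 0.08 above the median of all genes, with 0.05 under TMM scaling (adjusted p = 0.661).

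ADH4, an alcohol dehydrogenase of a separate family, had 243, 302 and 281 normalized counts in Spt20-AID DMSO and 278, 258 and 361 after 3-IAA, which overlapped. The log2 difference of 0.12 (SE 0.15, adjusted p = 0.492) lay 0.27 below the median of all genes, and TMM scaling turned it to -0.27 (adjusted p = 0.0275). Without both replicate 3 libraries it was -0.02 (adjusted p = 0.92). In Med16/Spt20-AID it had 504, 465 and 467 against 613, 584 and 511, a log2 difference of 0.25 (SE 0.14, adjusted p = 0.114), which passed when only the compared libraries set the spread (adjusted p = 0.0432) and was -0.05 under TMM scaling. In Med16/Taf13-AID it had 314, 413 and 363 in DMSO and 274, 231 and 258 after 3-IAA. Against the spike-in this was a log2 fold change of -0.52 (SE 0.16, adjusted p = 0.00122), with no overlap, and against the other genes it stood at the 98.6 percentile, 1.16 above the median, and at 1.14 under TMM scaling (adjusted p = 1.11e-08).

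ADH5 showed no called change with 3-IAA in any strain on the spike-in scale. In Spt20-AID it had 275, 243 and 189 normalized counts in DMSO and 215, 182 and 241 after 3-IAA, a log2 difference of -0.15 (SE 0.15, adjusted p = 0.38). It was called lower without both replicate 3 libraries (-0.39, adjusted p = 0.0337) and under TMM scaling (-0.51, adjusted p = 3.93e-05). In Med16/Spt20-AID it had 775, 601 and 559 against 831, 747 and 680, a log2 difference of 0.23 (SE 0.14, adjusted p = 0.147) that passed without DMSO replicate 1 (0.38, adjusted p = 0.0313) and was -0.06 under TMM scaling. In Med16/Taf13-AID it had 123, 174 and 118 in DMSO and 139, 112 and 141 after 3-IAA. While the median log2 fold change was -1.68 there against the spike-in, ADH5 stood at -0.09 (SE 0.19, adjusted p = 0.643), at the 99.6 percentile of all tested genes, and at 1.57 under TMM scaling (adjusted p = 4.17e-10). Its sign on the spike-in scale was positive without 3-IAA replicate 2 (0.016) and without DMSO replicate 2 (0.11).

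The other ADH genes were also compared with ADH1 within each library. Per kilobase, ADH5 amounted to 0.0279 ± 0.00234 (SD, n = 3) of ADH1 in Spt20-AID DMSO and 0.0626 ± 0.00375 after 3-IAA, 0.0501 ± 0.00594 and 0.0906 ± 0.00382 in Med16/Spt20-AID, and 0.0116 ± 0.00134 and 0.0171 ± 0.00198 in Med16/Taf13-AID. These groups were apart in all 3 strains. ADH4 went from 0.0306 ± 0.00735 to 0.0805 ± 0.00273 of ADH1 in Spt20-AID and from 0.0343 ± 0.000455 to 0.063 ± 0.00264 in Med16/Spt20-AID, and overlapped in Med16/Taf13-AID. ADH3 went from 0.0809 ± 0.00392 to 0.138 ± 0.00969 in Spt20-AID, overlapped in Med16/Spt20-AID (0.0874 ± 0.00361 and 0.091 ± 0.00654) and went from 0.109 ± 0.0177 to 0.0554 ± 0.00282 in Med16/Taf13-AID. Where groups were apart the exact permutation p was 0.1, the smallest possible, and 0.15 adjusted over the 18 ratios.

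Taf13 and Spt20 as the partner of Med16 were compared by the difference of the responses in the double degron strains. PDC5 (-1.94, SE 0.34, adjusted p = 8.93e-09), ADH3 (-1.04, SE 0.20, adjusted p = 3.72e-07) and ADH4 (-0.77, SE 0.21, adjusted p = 0.000371) were called lower against the spike-in, where TMM scaling gave positive values of 0.02, 0.92 and 1.19. That is 3 of 6 lower and 0 higher, in a background of 93.9% called lower and 0.449% higher. PDC1, ADH1 and ADH5 were not called, at 0.06, -0.01 and -0.31, while the median of all genes was -1.99, and TMM scaling gave 2.03, 1.94 and 1.63. These comparisons share the Med16/Spt20-AID libraries with the preceding ones, and strain and sequencing project cannot be told apart here.

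The libraries of the strains also differed before depletion. In DMSO, 5 of 6 tested genes were called higher and 0 lower in Med16/Spt20-AID than in Spt20-AID, where 94.3% of all tested genes were called higher and 0.341% lower and the median difference was 1.01. TMM scaling brought that median to 0.01, and strain and sample preparation cannot be told apart here. ADH5 had the highest value, 1.45 (SE 0.15, adjusted p = 6.73e-22), and was still higher under TMM scaling at 0.45 (adjusted p = 5.15e-05). PDC5 stood at 1.25, ADH4 at 0.80, ADH3 at 0.71 and ADH1 at 0.59 on the spike-in scale, whereas TMM scaling gave 0.26, -0.21, -0.28 and -0.39. PDC1 was the exception, at -0.20 (SE 0.15, adjusted p = 0.18), the 0.449 percentile of all tested genes, and at -1.17 under TMM scaling (adjusted p = 2.96e-11). Without Spt20-AID DMSO replicate 3, PDC1 was called lower on the spike-in scale too (-0.41, adjusted p = 0.00807). The Spt20-AID DMSO libraries serve both here and in the depletion comparison.

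Between the double degron strains in DMSO, ADH5 was the member that differed most. Its 3 Med16/Taf13-AID libraries (123, 174 and 118) lay below all 3 of Med16/Spt20-AID (775, 601 and 559), a log2 difference of -2.21 (SE 0.17, adjusted p = 6.63e-38), and -1.89 under TMM scaling. That placed it at the 0.467 percentile of all tested genes. ADH4 was also called lower (-0.40, SE 0.15, adjusted p = 0.0188), but not without Med16/Spt20-AID DMSO replicate 1 (-0.36, adjusted p = 0.0634), Med16/Taf13-AID DMSO replicate 1 (-0.30, adjusted p = 0.14) or Med16/Taf13-AID DMSO replicate 3 (-0.39, adjusted p = 0.0523). With 2 of 6 called lower and 0 higher, the members stood beside 48.6% and 7.02% of all tested genes. PDC1 (0.30, adjusted p = 0.0724), PDC5 (-0.47, adjusted p = 0.0544), ADH1 (-0.11, adjusted p = 0.561) and ADH3 (0.20, adjusted p = 0.215) were not called. TMM scaling called PDC1 (0.61), ADH1 (0.22, adjusted p = 0.0138) and ADH3 (0.52) higher, and gave ADH4 -0.08. PDC1 was called higher without Med16/Taf13-AID DMSO replicate 3 (0.39, adjusted p = 0.0418), and PDC5 lower without Med16/Spt20-AID DMSO replicate 3 (-0.56, adjusted p = 0.0373).

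PDC6 and ADH2 were nearly silent on the sense strand in all libraries. PDC6 had 1 to 17 sense reads per library, 110 in all. Its normalized counts were 3.01, 2.49 and 1.44 in Spt20-AID DMSO and 12.1, 9.46 and 7.21 in Med16/Spt20-AID DMSO. With no count filter, edgeR gave a log2 difference of 2.0 between these groups (SE 0.53, adjusted p = 0.000259), and PDC6 was not called in any 3-IAA comparison. Between the same DMSO groups the median of all genes in the filtered fit was 1.01, and 94.3% were called higher. ADH2 had 3 to 26 sense reads per library, 156 in all, and its reads per kilobase were between 0.000344 and 0.00196 of those of ADH1 in the same library. Its levels are uncertain because a read must carry a base that differs from ADH1, as the sequences above show. ADH1 had 161157 sense reads in all, and whether some of the 156 were misread ADH1 reads was not tested. ADH2 had 15.4, 8.60 and 17.05 sense normalized counts in Med16/Spt20-AID DMSO and 6.71, 2.82 and 5.61 after 3-IAA, and 9.35, 19.6 and 22.5 in Med16/Taf13-AID DMSO and 4.40, 3.79 and 4.39 after it. Both pairs of groups were separate, with log2 differences of -1.44 (SE 0.46, adjusted p = 0.0073) and -2.02 (SE 0.57, adjusted p = 0.000526) in the unfiltered fit. In Spt20-AID the groups overlapped, at 12.7, 5.81 and 3.36 in DMSO and 5.27, 3.34 and 4.41 after 3-IAA. The difference there was -0.72 (SE 0.48, adjusted p = 0.208, edgeR). In the filtered fit 10.3% of genes were called lower in Med16/Spt20-AID and 98.2% in Med16/Taf13-AID. The medians of all genes were 0.31 and -1.68.

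Most reads over ADH2 came from the other strand. Of 961 reads counted there 805, or 83.8%, were antisense, against 0.0521% at ADH1, 0.0742% at PDC1 and 32.1% at PDC6, where the reads of both strands were few. ADH2 lies at chrXIII:873291-874337 on the minus strand and has 1 coding segment, and the nearest gene is UBP15 on the plus strand, 650 bases away. The antisense normalized counts were 25.9, 27.4 and 18.3 in Spt20-AID DMSO and 29.3, 27.4 and 32.7 after 3-IAA, which overlapped by a narrow margin. The log2 difference was 0.34 (SE 0.25, adjusted p = 0.286), in a fit of 2053 genes with antisense reads of which 24.7% were called higher. In Med16/Spt20-AID they were 38.5, 58.5 and 41.3 in DMSO and 98.7, 94.8 and 102 after 3-IAA. Antisense reads thus rose while the few sense reads were lower, by 1.09 on the log2 scale (SE 0.22, adjusted p = 1.15e-05), beside 32.0% of tested genes called higher and a median of 0.38. In Med16/Taf13-AID they were 35.5, 37.4 and 50.1 in DMSO and 19.1, 6.31 and 11.7 after 3-IAA, a log2 fold change of -1.76 (SE 0.35, adjusted p = 2.83e-06), where 61.9% were called lower and the median was -1.23. Where this antisense RNA starts was not measured.

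**Figure D4:**
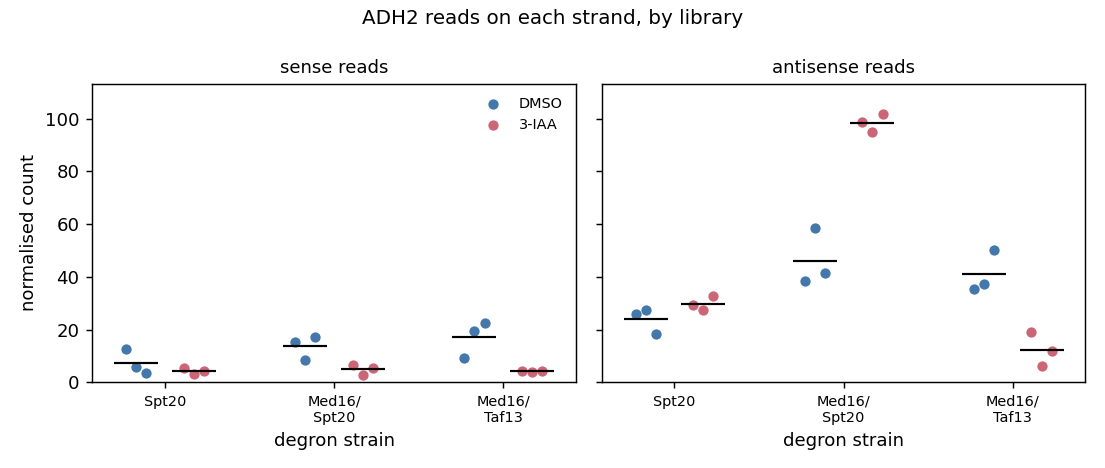
Normalized counts over ADH2 (y axis, linear, from 0) on its sense strand (left) and antisense strand (right) in each library, by degron strain (x axis); blue points are DMSO, red points 3-IAA, and a bar is the mean of 3 libraries. Antisense counts reach 94.8 to 102 in Med16/Spt20-AID after 3-IAA, and sense counts stay at or below 22.5.

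Of all tested genes 54.0% were called higher and 8.08% lower in Spt20-AID, and 46.2% and 10.3% in Med16/Spt20-AID, and the lists of genes around these steps of metabolism are read against those shares. Of the 4 genes that lead to glycerol, the other sink for NADH, 4 were called lower in each strain with Spt20 depleted, with medians of -0.76 and -0.85, and the deepest losses were GPP1 (glycerol phosphatase, -0.96, adjusted p = 3.9e-09) in the first strain and GPD1 (glycerol-3-phosphate dehydrogenase, -2.09, adjusted p = 1.52e-42) in the second. Of 7 genes that use acetaldehyde or acetate, 3 were called higher and 2 lower in Spt20-AID, from ALD2 (aldehyde dehydrogenase, 0.88, adjusted p = 0.000425) down to ALD5 (-0.77, adjusted p = 1.97e-06). In Med16/Spt20-AID 5 of these 7 were called lower and 0 higher, the deepest being the mitochondrial aldehyde dehydrogenase ALD4 (-1.20, adjusted p = 2.5e-14). The list of other dehydrogenases had 1 of 5 called higher and 2 lower in both strains. ADH6, an NADPH-dependent alcohol dehydrogenase, was the deepest in each, at -0.85 (adjusted p = 3.13e-07) and -1.61 (adjusted p = 5.79e-24), and BDH2 was the called increase, at 0.66 (adjusted p = 0.0211) and 0.56 (adjusted p = 0.0198).

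Of 11 genes for other fates of pyruvate and 2-oxo acids, 6 were called higher and 2 lower in Spt20-AID, and 5 and 2 in Med16/Spt20-AID, shares of increases near those of all genes. ARO10, a phenylpyruvate decarboxylase of the same family as the PDC genes, had the deepest loss of these in both, -1.77 (adjusted p = 8.1e-14) and -3.07 (adjusted p = 5.05e-37). THI3 (0.76, adjusted p = 3.5e-06) and the pyruvate kinase gene PYK2 (0.78, adjusted p = 1.86e-06) had the largest called increases. Of 12 regulators of PDC and ADH genes, 9 were called higher and 1 lower in Spt20-AID, from CAT8 (1.14, adjusted p = 2.91e-08) to GCR1 (-0.37, adjusted p = 0.0201), and 6 and 2 in Med16/Spt20-AID, from THI2 (0.89, adjusted p = 4.09e-05) to ADR1 (-0.72, adjusted p = 5.7e-06). Their medians of 0.46 and 0.33 were close to the 0.38 and 0.31 of all genes. CAT8 and ADR1 encode activators of genes used without glucose, ADH2 among them, GCR1 an activator of glycolytic genes, and THI2 a thiamine regulator. In Med16/Taf13-AID every tested gene of these 5 lists was called lower against the spike-in, as were 98.2% of all genes. Their medians there were -1.24 for glycerol, -1.77 for acetaldehyde and acetate, -1.58 for the other dehydrogenases, -1.38 for pyruvate and -1.64 for the regulators, beside -0.61 for the 6 tested members and -1.68 for all tested genes. The deepest were GPD1 (-1.45), ALD4 (-2.30), ADH7 (-2.24), ARO10 (-2.52) and CAT8 (-3.34), of which GPD1 was above the median gene and the others below it. The members were not alike, with PDC5 (-1.57) and ADH3 (-1.60) near the median gene. In the pyruvate list CDC19 (-0.66) and PYK2 (-0.55) fell about as little as PDC1 (-0.59) and ADH1 (-0.64). PYC1 was next in that list, at -1.05, and its other genes fell further. TMM scaling shifts all genes of a strain in common, by 1.66 here, so list medians above -1.66 would pass 0 with it.

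Likeness of pattern was measured as Pearson's r over the 18 libraries of log2 normalized counts, each library centered on its median gene, among 5148 genes. The libraries share strains and treatments, so r is a description. ADH1 was most like ENO1 (0.99), ORC5 (0.983) and TDH2 (0.983), of which ENO1 and TDH2 encode the glycolytic enzymes enolase and glyceraldehyde-3-phosphate dehydrogenase. PDC1 was most like UTR2 (0.978), MIG2 (0.977) and NDE1 (0.972), and ADH3 most like GSH1, VID24 and SLT2 (0.984 to 0.985). ADH4 was most like MAM33 (0.927), YPL245W (0.922) and HRP1 (0.915), and ADH5 most like COR1 (0.916), LYS2 (0.902) and HIS1 (0.899), the last 2 being amino acid biosynthesis genes. PDC5 had no neighbor above 0.763, the value with ARP7. These names depend on the measure: with Spearman's rho in place of r, 2 of the 3 were shared for ADH1, 1 for PDC5 and 0 for PDC1, ADH3, ADH4 and ADH5. Among the members themselves ADH1 and ADH3 were most alike (0.907), followed by PDC1 with ADH3 (0.797) and PDC1 with ADH1 (0.757), whereas PDC1 and PDC5 had -0.28 and ADH3 and ADH5 had -0.31.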

How the data were processed

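Sense read counts of 18 nsRNA-seq libraries were used. Alignment by the authors was to sacCer3 (STAR 2.6.1a), and raw read counts were deposited for 6692 genes, for both strands and for each strand, without normalization. The opposite strand to the read is the sense strand. Reads that map to several places, 56.1% to 79.1% of mapped reads, and those in no gene were not used. The size factors of the spike-in were solved from mean normalized counts that the study's supplement lists for 1950 genes (least squares), and gave these back to a median error of 6.4e-05%. Other values of that table were not used.

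Counts were fitted in edgeR 4.0.16 (R 4.3.3) with the quasi-likelihood test, 6 groups, spike-in offsets and a mean of 10 or more reads per gene, and p-values were Benjamini-Hochberg adjusted over all tested genes. The fit was also run on simulated counts with the same spread for all genes and no replicate effect. Such counts are simpler than these libraries and do not test how it handles replicate effects or rare genes. Replicates are biological triplicates according to the study. TMM, median-of-ratios, DESeq2 1.42.0, other filters, both strands, only the libraries compared, a 1.5-fold threshold, a replicate block and leaving libraries out were alternatives. The 8 genes are all described; of the other lists, which were fixed by role, the largest called increase and decrease per 3-IAA comparison were named, and the 3 most alike genes per tested member. Members and lists were chosen with earlier results of these data known. The antisense fit, the ADH1 to PDC1 ratio and leaving out both Spt20-AID replicate 3 libraries were added after seeing the data. Genes, lengths and sequences came from RefSeq R64, in which 6008 of the gene names were found.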

Additional observations from a re-analysis of the deposited data

Results flagged for a closer look

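For 4 results the response to 3-IAA differed between strains by an interaction test. For ADH1 the response in Med16/Spt20-AID exceeded the one in Spt20-AID by 0.69 (adjusted p = 0.039, edgeR), a smaller loss, and the call was lost with a replicate block and without most single libraries of these strains. Between Med16/Taf13-AID and Med16/Spt20-AID the response of PDC5 differed by -1.94, that of ADH3 by -1.04 and that of ADH4 by -0.77. Each of these 3 has the sign of the median of all genes, -1.99, and each is positive under TMM scaling.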

How the results depend on the processing

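Of 720 values of single members under an alternative, 610 kept their direction and side of the threshold, 23 became called and 27 lost their call. Another 32 changed sign with a call on at least 1 side, under TMM or median-of-ratios scaling, which remove the shift common to all genes. The remaining 28 changed sign with no call on either side, 8 under these scalings and 20 with libraries left out. Under TMM and median-of-ratios the log2 fold changes in Med16/Taf13-AID were 1.08 and 1.10 for PDC1, 0.092 and 0.11 for PDC5, 1.02 and 1.04 for ADH1, 0.055 and 0.077 for ADH3, 1.14 and 1.16 for ADH4 and 1.57 and 1.59 for ADH5. For ADH4 in Spt20-AID they were -0.27 and -0.25. For the response in Med16/Taf13-AID minus that in Med16/Spt20-AID they were 0.017 and 0.015 for PDC5, 1.94 and 1.94 for ADH1, 0.92 and 0.92 for ADH3, 1.19 and 1.18 for ADH4 and 1.63 and 1.63 for ADH5. For Med16/Spt20-AID against Spt20-AID in DMSO they were -0.39 and -0.39 for ADH1, -0.28 and -0.27 for ADH3 and -0.21 and -0.21 for ADH4, and for Med16/Taf13-AID against Med16/Spt20-AID in DMSO 0.22 and 0.23 for ADH1. Both scalings gave the same counts of members called, 5 lower in Spt20-AID, 4 higher and 0 lower in Med16/Taf13-AID, 2 higher for Med16/Spt20-AID minus Spt20-AID, 5 higher and 0 lower for Med16/Taf13-AID minus Med16/Spt20-AID, 1 higher and 3 lower for Med16/Spt20-AID against Spt20-AID in DMSO, and 3 higher and 1 lower for Med16/Taf13-AID against Med16/Spt20-AID in DMSO. A 1.5-fold threshold left 1 called lower in Spt20-AID, 2 in Med16/Spt20-AID, 4 in Med16/Taf13-AID and 1 in the last comparison, and fitting only the libraries compared gave 2 called higher in Med16/Spt20-AID. Leaving out libraries gave 0 to 1 called higher in Med16/Spt20-AID, 2 to 4 called lower in Spt20-AID, 0 to 2 called higher for Med16/Spt20-AID minus Spt20-AID, 0 to 1 called lower for Med16/Spt20-AID against Spt20-AID in DMSO, and 0 to 1 called higher and 1 to 3 called lower for Med16/Taf13-AID against Med16/Spt20-AID in DMSO. DESeq2, the other count filters and counts of both strands changed no call of a tested member.

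Cultures were split between 3-IAA and DMSO, but no source says that a number marks the same culture. Deviations from the group means were shared only in part by a 3-IAA library and the DMSO library of its number, with correlations of 0.403, 0.0693 and 0.276 (Spt20-AID), 0.452, 0.468 and 0.226 (Med16/Spt20-AID) and 0.171, 0.193 and 0.0317 (Med16/Taf13-AID), and each 3-IAA library, but not each DMSO library, correlated best with its own number. With a replicate block, 0 members were called higher for Med16/Spt20-AID minus Spt20-AID (ADH1 0.69, adjusted p = 0.0738, edgeR), PDC5 was called lower in Med16/Taf13-AID against Med16/Spt20-AID in DMSO (-0.47, adjusted p = 0.044), and no other call changed. The depth limits PDC5, PDC6 and sense ADH2, with 10, 1 and 3 reads in their shallowest library.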
